A study of Homo sapiens with 3 samples.

Results

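Interleukins are secreted proteins through which cells signal to each other, and their receptors are assembled from chains that are often shared between several ligands. The genes described here are those whose symbol is IL followed directly by a digit, 88 of the 19775 genes that the arrays read through a probe set with a single gene symbol, or 157 of 41091 such probe sets. They comprise 38 ligands, 39 receptor chains, 4 antagonists or binding proteins, 1 enzyme (IL4I1) and 6 RNA genes named after a neighbouring interleukin gene. The members were chosen by gene symbol, with no measured value in that rule, although the family was picked with earlier results of these data known. A signal below 50 is marked as near background. Another 2 probe sets carried a member's symbol together with that of another gene and were left out.

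Expression was measured once for each of 3 constructs in U2OS, a human osteosarcoma cell line. Set8 (gene KMT5A) is the enzyme that monomethylates histone H4 at lysine 20. The constructs, carried by a retrovirus, were a stable Set8b (labelled Set8_deltaPIP2) that is not degraded through the CRL4-Cdt2 ubiquitin ligase, the degradable wild-type Set8b (Wt-Set8b), and the empty vector (pMSCV-vector), which carries no Set8b. All cells were grown in DMEM with serum, split daily and collected 5 days after transduction, and no label used here says whether transduced cells were selected. With 1 array per construct no difference has a replicate check, no test is possible and no p-value is given. A lower signal in such bulk RNA cannot separate fewer expressing cells from less RNA per cell.

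Interleukin families differ in the receptor they use. Ligands of the gp130 family, such as IL-6 and IL-11, bind a receptor chain of their own and then the shared chain gp130, encoded by IL6ST, which signals through JAK kinases and STAT3. Ligands of the IL-1 family, such as IL-1 and IL-18, use paired receptors that signal through MYD88 and IRAK kinases to NF-kB. IL-2, IL-4, IL-7 and IL-15 share the common gamma chain, encoded by IL2RG. Leukocytes make and sense most interleukins, while fibroblasts, bone-forming cells and tumour cells make some of them, IL-6 and IL-11 among these. IL-6 is also a well-known member of the factors that senescent cells secrete.

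The arrays differed in ways that bear on every value. The median deposited intensity lay between 38.6 and 42.8. The stable Set8b array stood apart in 18 hybridisation spike-in probe sets. Its median ratio was 0.796 to the vector array and 0.78 to the wild-type array, while wild-type Set8b over vector was 1.01. The vector array stood apart in 24 poly-A spike-in probe sets, with median ratios to it of 0.467 for stable and 0.441 for wild-type Set8b. The 4 probe sets of KMT5A ranged from -0.76 to 0.90 log2 for stable Set8b over vector and from 0.18 to 1.23 for wild-type Set8b over vector, and since their positions in the construct are unknown here, they do not check the labels. Of 12 mesenchymal and bone markers 10 reached 50 on at least 1 array, and COL1A2 and TWIST1 did not. Of 14 measured leukocyte markers 8 were below 50 on every array, among them PTPRC (the pan-leukocyte marker CD45), CD14, LYZ and MS4A1. The leukocyte markers' summed signal was 843 with stable Set8b, 1267 with wild-type Set8b and 1077 with vector. Without NCAM1 the sums over the other 13 were 531, 583 and 439 in the same order, so the stable Set8b array was then above the vector array and below the wild-type one. Among those that reached 50, the T cell gene CD3D read 200.2 with stable Set8b against 107 with vector, while NCAM1, a marker of natural killer cells that other lineages also express, read 312 against 638. CD79A and CSF1R were above 50 on all arrays. CD79A read 117 with stable Set8b, 184 with wild-type Set8b and 99.7 with vector, and CSF1R 57.9, 78.1 and 53.6. CD3E and CD4 reached 50 with wild-type Set8b only, at 52.9 and 52.6. The part of these markers in the results below was not tested.

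Signals given below were quantile normalized, which gives the arrays the same distribution. For differences, any signal below 50 was set to 50, each gene was represented by its brightest probe set, and a gene was counted at a 2-fold difference, a log2 difference of 1. A difference against a side set to 50 is therefore a bound and is written with "at least". Of the 88 genes, 41 reached 50 on at least 1 array, 46.6% against 65.6% of all genes, and 23 reached it on every array. Among ligands 14 of 38 reached 50, 5 of them on all arrays, and among receptor chains 24 of 39, 18 of them on all arrays. Genes just above the mark were IL37, IL17RE and IL1RN, with highest signals of 50.8, 57.3 and 57.6, and just below it lay IL20RB at 48.0, IL1B at 42.7 and IL2RG at 42.5.

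With stable Set8b, 6 of the 88 genes were at least 2-fold higher than with vector (6.82%, against 3.09% of all 19775 genes) and 1 was at least 2-fold lower (1.14%, against 2.6%). The higher ones were the ligands IL11, IL18, IL32 and IL6 and the receptor chains IL4R and IL13RA2, and the lower one was the receptor chain IL22RA1. Against wild-type Set8b, 7 genes were at least 2-fold higher (7.95%, against 2.61%), namely IL11, IL18, IL32, IL4R, IL6, IL1RAP and IL7R, and 0 were lower (against 2.62%). Between wild-type Set8b and vector, 0 genes passed 2-fold in either direction, where 0.43% of all genes were higher and 0.217% lower. The 5 genes counted in both comparisons of stable Set8b were measured on the same stable Set8b array, so the comparisons are not independent. Over all 88 genes the median log2 difference was 0.0 in each comparison, as it was over all genes, and 47 of the 88 members were below 50 on every array, where the difference is 0 by construction.

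**Figure D1:**
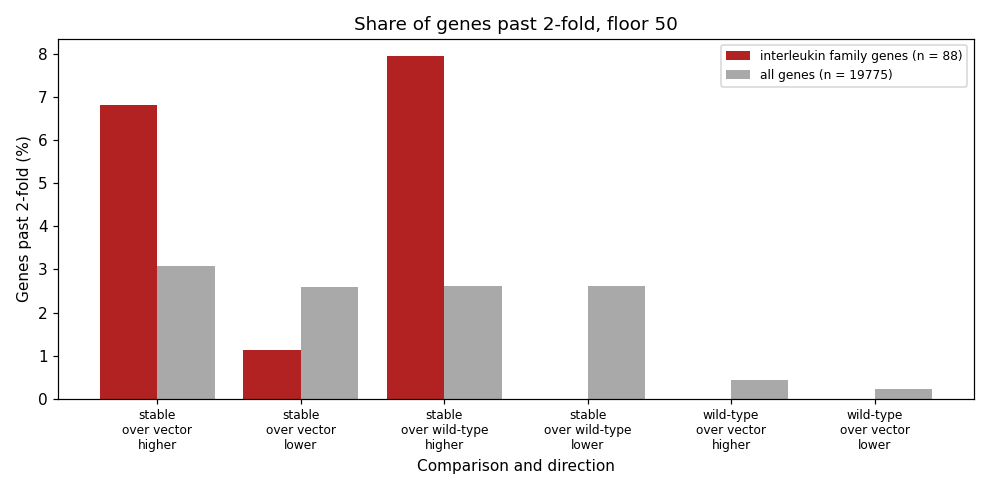
Percent of genes past a 2-fold difference (vertical axis) for each comparison and direction, with signals below 50 set to 50. Red bars stand for the 88 interleukin family genes and grey bars for all 19775 genes, 1 array per construct. The red bars reach 6.82% and 7.95% for higher signals with stable Set8b, beside 3.09% and 2.61% of all genes, and no red bar stands above 0 for wild-type Set8b over vector.

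Among the ligands with signals of 50 or more on all arrays, IL11 differed most between stable Set8b and vector, while IL32, below 50 with vector, has only a bound. IL-11 acts on bone, blood-forming and stromal cells through gp130. Its probe set 206924_at read 1698 with stable Set8b, 314.5 with wild-type Set8b and 242 with vector, 7.02-fold over vector and 5.40-fold over wild-type. The stable Set8b array was far above the other two, and wild-type Set8b exceeded vector by 0.38 log2. The other IL11 probe set, 206926_s_at, was dim at 57.4, 69.8 and 61.8 and showed no such difference (-0.11 log2 for stable Set8b over vector), so the IL11 value rests on 206924_at.

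IL18, which encodes the precursor of IL-18, a cytokine released after cleavage by caspase-1, was read by 1 probe set. Its signal was 5909 with stable Set8b, 1490.4 with wild-type Set8b and 1873 with vector. The gene was 3.16-fold higher than with vector and 3.96-fold higher than with wild-type Set8b, and its wild-type signal lay below that of the vector by 0.33 on the log2 scale. As for IL11, the stable Set8b array was the high one, and the signal was above 50 on all arrays.

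IL6 and IL32 reached 50 on the stable Set8b array only. IL6 read 112 with stable Set8b, 31.1 with wild-type Set8b and 27.9 with vector, at least 2.24-fold higher than either. IL32, an intracellular and secreted inducer of other cytokines, read 142 with stable Set8b, 32.0 with wild-type Set8b and 5.97 with vector, at least 2.84-fold higher. Both were read by 1 probe set each, that of IL32 ending in _s_at, and with a floor of 100 in place of 50 neither passed 2-fold.

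The promoters of genes that were higher with stable Set8b in both comparisons are shown because these genes were high together on that array, as the 250 bases before the annotated start from RefSeq sequence (GRCh38.p14), read 5′ to 3′ on the gene's strand. They lie at chr7:22726950-22727199 (IL6, plus strand), chr19:55370464-55370713 (IL11, minus strand), chr16:3065153-3065402 (IL32, plus strand, the upstream of 2 annotated starts) and chr16:27313724-27313973 (IL4R, plus strand). IL18, the other gene of this group, had no entry among the promoters used, so it was not searched. Capitals mark matches, on either strand, to GGANTTTCC, letters that NF-kB binds, or to TGANTCA, letters that AP-1 binds.
IL6: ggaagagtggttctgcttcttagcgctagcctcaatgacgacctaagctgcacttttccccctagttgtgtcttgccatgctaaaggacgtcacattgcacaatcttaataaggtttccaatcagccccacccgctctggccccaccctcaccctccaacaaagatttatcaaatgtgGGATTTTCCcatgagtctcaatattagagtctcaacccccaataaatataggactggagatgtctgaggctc
IL11: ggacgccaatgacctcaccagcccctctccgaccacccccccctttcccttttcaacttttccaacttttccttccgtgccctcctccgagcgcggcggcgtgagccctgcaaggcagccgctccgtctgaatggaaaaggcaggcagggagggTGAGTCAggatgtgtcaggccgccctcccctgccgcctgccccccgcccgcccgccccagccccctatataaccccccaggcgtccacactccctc
IL32: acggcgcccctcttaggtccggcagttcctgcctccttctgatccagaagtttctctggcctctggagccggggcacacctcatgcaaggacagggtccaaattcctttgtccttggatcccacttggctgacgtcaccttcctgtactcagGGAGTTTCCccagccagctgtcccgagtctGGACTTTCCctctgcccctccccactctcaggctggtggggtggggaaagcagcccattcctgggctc
IL4R: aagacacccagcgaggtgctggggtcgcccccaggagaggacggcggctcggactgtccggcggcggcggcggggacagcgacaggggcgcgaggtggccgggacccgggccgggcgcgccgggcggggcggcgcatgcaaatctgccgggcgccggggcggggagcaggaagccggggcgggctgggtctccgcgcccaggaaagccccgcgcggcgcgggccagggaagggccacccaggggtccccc
The NF-kB letters stood at -72 to -64 from the start in IL6 and at -98 to -90 and -68 to -60 in IL32, the AP-1 letters at -96 to -90 in IL11, and IL4R held neither in this window. The window was searched in 114 promoters of 73 member genes and in all 35116 promoters of the table. The NF-kB letters were in 6 member promoters (5.26%), of the genes IL6, IL32, IL27RA, IL13 and IL18RAP, against 1.45% of all promoters. Of these genes, IL27RA and IL13 did not pass 2-fold in any comparison, and IL18RAP was below 50 on every array. The AP-1 letters were in 17 member promoters (14.9%) of 13 genes, against 6.57% of all, and these included genes below 50 on every array, such as IL1A and IL10. They also included IL22RA1, the member that was lower with stable Set8b than with vector by 2-fold. The letters TTTCCCGC, which E2F factors bind, were in 0 member promoters and in 1.39% of all. These are matches of letters, and no binding was measured.

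Other ligands differed less or were dimmer. IL15, which supports natural killer and memory T cells, was the bright ligand with its lowest signal on the stable Set8b array. It read 259 with stable Set8b, 421 with wild-type Set8b and 394 with vector, 1.52-fold lower than with vector and 1.63-fold lower than with wild-type Set8b. Its dimmer probe set lay on the same side (-0.25 and -0.72 log2). The chain that presents IL-15, IL15RA, read 145 with stable Set8b, 120.0 with wild-type Set8b and 102 with vector, 0.52 log2 higher with stable Set8b than with vector. The ligand and its presenting chain thus lay on opposite sides of the vector array.

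IL17B read 89.35 with stable Set8b, 51.4 with wild-type Set8b and 65.5 with vector, highest on the stable Set8b array. IL23A, a subunit of IL-23, read 70.0 with stable Set8b, 69.1 with wild-type Set8b and 70.5 with vector, all within 0.03 log2, and its other probe sets were below 50 on every array. IL12A, the p35 subunit of IL-12, reached 62.4 with stable Set8b against 28.4 and 24.8, and IL24 reached 65.2 against 29.8 and 30.0 (wild-type Set8b and vector). These last pairs crossed 50 on the stable Set8b array, with bounds of at least 0.32 and 0.38 log2. IL16 reached 50 with both forms of Set8b (65.5 with stable and 67.2 with wild-type) and read 29.0 with vector by 1555016_at, but 209827_s_at reached it with stable Set8b only (54.1, against 3.97 with wild-type Set8b and 24.6 with vector). The ligands that reached 50 with vector and not with stable Set8b were IL13, IL17C, IL34 and IL37, with highest signals between 50.8 and 64.6, close to the mark. IL13 reached it with wild-type Set8b too.

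The other 24 ligands were below 50 in every probe set on every array. They include IL1A and IL1B, the classical IL-1 ligands, at highest signals of 36.0 and 42.7, and IL33, the alarmin of the same family, at 16.6. All ligands of the IL-36 group, IL2, IL3, IL4, IL5, IL7, IL10, IL12B, IL17A, IL17D, IL17F, IL19, IL20, IL21, IL22, IL25, IL26, IL27 and IL1F10 were also below 50. Signal level alone stood for detection, so a low level of these RNAs is not excluded. By RefSeq order (GRCh38.p14), IL1A, IL1B, IL37, IL36G, IL36A, IL36B, IL36RN, IL1F10 and IL1RN lie next to each other on chromosome 2, and 2 of the 9 reached 50, IL37 and IL1RN. Of the neighbours IL10, IL19, IL20 and IL24 on chromosome 1, only IL24 did.

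Of the 4 antagonists and binding proteins 2 reached 50, and neither reached 100. IL18BP, the secreted protein that captures IL-18, read 98.7 with stable Set8b, 30.6 with wild-type Set8b and 50.2 with vector by 222868_s_at. The stable Set8b array was 0.98 log2 higher than vector, just short of 2-fold, and at least 0.98 higher than wild-type, while another probe set of the gene, 224283_x_at, read 52.5, 66.1 and 30.8 and was highest with wild-type Set8b. IL1RN, the IL-1 receptor antagonist, read 57.6 with stable Set8b, 25.3 with wild-type Set8b and 32.0 with vector, at least 0.20 log2 higher than vector. Its other probe sets were below 50 on every array. IL22RA2, a soluble receptor of IL-22, and IL36RN, the IL-36 receptor antagonist, were below 50 on every array.

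**Figure D2:**
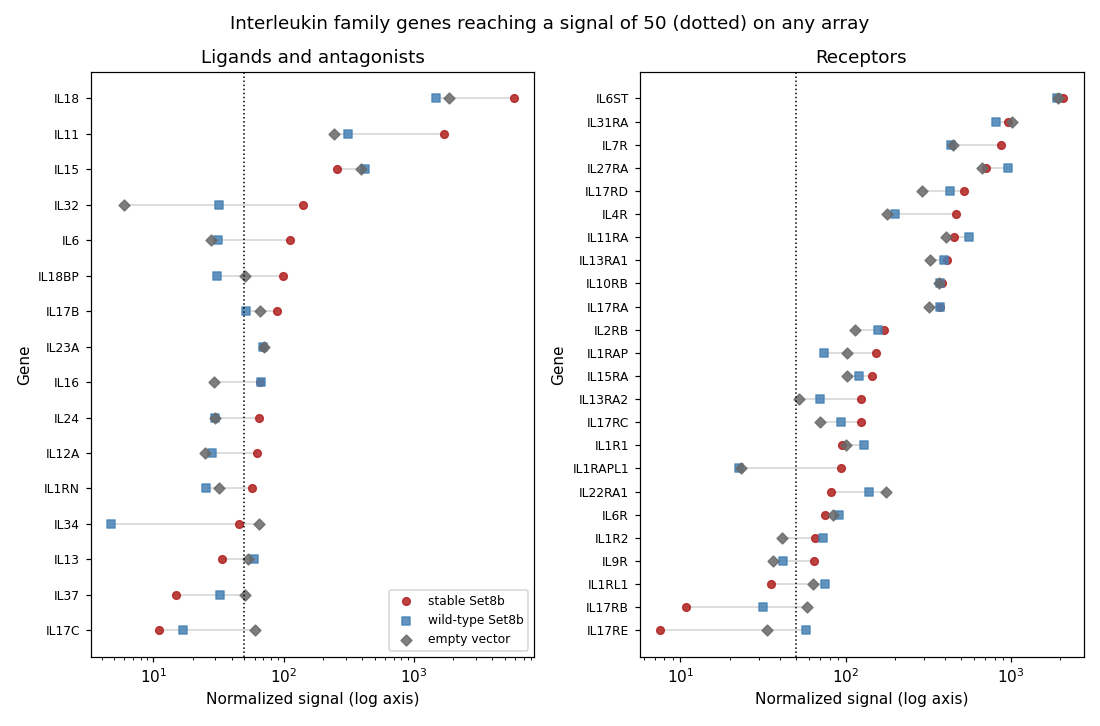
Normalized signal on a log axis (horizontal) of each ligand, antagonist and receptor gene whose brightest probe set reached 50 on any array, ordered by the stable Set8b signal, with 1 array per construct (red circles stable Set8b, blue squares wild-type Set8b, grey diamonds vector). The dotted line marks a signal of 50. IL18 and IL11 stand far to the right with stable Set8b (5909 and 1698), and the symbols of IL6ST, IL10RB and IL23A nearly coincide.

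Receptor chains of the gp130 family were above 50 on at least 1 array for 5 of 5 genes, and none passed 2-fold. IL6ST, the shared chain, read 2086 with stable Set8b, 1911 with wild-type Set8b and 1946 with vector. IL11RA, the chain that binds IL-11, read 454 with stable Set8b, 563 with wild-type Set8b and 404 with vector. IL6R, the chain that binds IL-6, read 74.7 with stable Set8b, 91.5 with wild-type Set8b and 84.1 with vector. For these chains, then, no array stood apart in the way that the stable Set8b array did for the ligands IL11 and IL6. IL27RA read 713 with stable Set8b, 961 with wild-type Set8b and 672 with vector by its brightest probe set, and a second probe set, at 409, 299.8 and 325, ordered the arrays differently. IL31RA was between 811 and 1018 by 243541_at, but its other 2 probe sets stayed at or below 35.5 on all arrays, so its level depends on the probe set.

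IL7R and IL4R stood out among receptors of the common gamma chain family. IL7R, which binds IL-7 and, in another complex, TSLP, read 879 with stable Set8b, 436 with wild-type Set8b and 447 with vector by 226218_at. Its other probe set, 205798_at, read 470.2 with stable Set8b, 289 with wild-type Set8b and 184 with vector. Stable Set8b was thus highest by both probe sets, at 0.98 and 1.36 log2 over vector and 1.01 and 0.70 over wild-type, so on which side of 2-fold the gene falls depends on the probe set. Wild-type Set8b exceeded vector by 0.65 log2 in the dimmer probe set and lay at -0.03 in the brighter one.

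IL4R, the chain that IL-4 and IL-13 receptors have in common, read 467 with stable Set8b, 199 with wild-type Set8b and 177.5 with vector, 2.63-fold over vector and 2.35-fold over wild-type. It has 1 probe set. IL13RA1, which pairs with IL4R, read 413 with stable Set8b, 392 with wild-type Set8b and 323 with vector by its brightest probe set, and its 4 probe sets ranged from -0.20 to 0.41 log2 for stable Set8b over vector. IL13RA2, which binds IL-13 as a decoy without a long signalling tail, read 125 with stable Set8b, 70.1 with wild-type Set8b and 52.4 with vector. It was 2.38-fold higher than with vector and 1.78-fold higher than with wild-type Set8b, so the wild-type array lay between the others. Its vector signal is near the mark of 50, and with a floor of 100 it did not pass 2-fold.

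The common gamma chain IL2RG itself did not exceed 42.5 on any array, and IL2RA and IL21R were below 50 as well. IL2RB, a chain of the IL-2 and IL-15 receptors, read 170.2 with stable Set8b, 157 with wild-type Set8b and 115 with vector, 0.57 log2 higher with stable Set8b than with vector. IL9R was near the mark, at 64.7, 42.0 and 36.2 in the same order of arrays by 217212_s_at and at 50.65, 67.5 and 14.1 by 214950_at, so the probe sets disagreed on which array was highest. Without probe sets ending in _s_at the bound for stable Set8b over vector is at least 0.02 in place of at least 0.37 log2. IL4R and IL21R are neighbours on chromosome 16, where the first reached 50 on all arrays and the second on none.

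In the IL-1 receptor family, 5 of 9 chains reached 50. IL1RAP, the accessory chain that IL-1, IL-33 and IL-36 receptors share, read 152 with stable Set8b, 74.5 with wild-type Set8b and 103 with vector. It was 2.04-fold higher than with wild-type Set8b and 1.48-fold higher than with vector. Its other probe set gave at least 1.06 log2 over wild-type Set8b, whose signal was below 50, and 0.97 over vector, so both were highest with stable Set8b and lowest with wild-type. IL1R1, the signalling receptor of IL-1, read 95.7 with stable Set8b, 130.3 with wild-type Set8b and 101 with vector, and IL1R2, a decoy, 65.1, 72.8 and 41.3. IL1RL1, the receptor of IL-33, read 35.2 with stable Set8b, 74.8 with wild-type Set8b and 63.3 with vector by 242809_at, and its other probe sets were below 50 on every array. For IL1R1, IL1R2 and IL1RL1 the wild-type array was the high one by the probe set of each gene that reached 50. IL1RAPL1, known mainly from synapses, read 94.5 with stable Set8b, 22.5 with wild-type Set8b and 23.2 with vector by 220663_at, at least 0.92 log2 higher than either. Its other probe set was below 50 on every array. The 2 chains of the IL-18 receptor, IL18R1 and IL18RAP, were below 50 on every array (highest signals 28.0 and 4.3), although their ligand's gene was bright. IL1R2, IL1R1, IL1RL2, IL1RL1, IL18R1 and IL18RAP are neighbours on chromosome 2, and IL1R2, IL1R1 and IL1RL1 were the 3 that reached 50.

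All 5 IL-17 receptor genes reached 50 on some array, and none passed 2-fold. IL17RD, a chain that also restrains FGF signalling, read 522 with stable Set8b, 427 with wild-type Set8b and 289.9 with vector. It was 0.85 log2 higher with stable Set8b and 0.56 higher with wild-type Set8b than with vector, so here the vector array was the low one, and its dim second probe set, at 50.65, 30.2 and 9.7, lay on the same side over vector, by at least 0.02. IL17RC read 124 with stable Set8b, 94.4 with wild-type Set8b and 70.5 with vector, at 0.81 log2 for stable Set8b over vector, and its probe sets ranged from -0.08 (a bound, with stable Set8b below 50) to 0.81. IL17RA, the chain that IL-17 receptors share, read 376 with stable Set8b, 372 with wild-type Set8b and 322 with vector. Its 4 probe sets gave -0.32 to 0.90 log2 for stable Set8b over vector and lie on both sides of 0, so no direction is given for it. IL17RB and IL17RE reached 58.2 (vector) and 57.3 (wild-type Set8b) and read 10.8 and 7.5 with stable Set8b.

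IL22RA1, a receptor chain for IL-22, IL-20 and IL-24 that epithelial cells express, was the member lower than vector by 2-fold. It read 81.5 with stable Set8b, 139 with wild-type Set8b and 176 with vector, 2.16-fold lower than with vector and 1.71-fold lower than with wild-type Set8b. The wild-type array lay between the other two, and the gene has 1 probe set. IL10RB, its partner for IL-22, read 382 with stable Set8b, 373 with wild-type Set8b and 367 with vector, within 0.06 log2. IL20RA, IL20RB and IL10RA, other chains of this group, were below 50 on all arrays, as were IL12RB1, IL12RB2 and IL23R of the IL-12 group, IL3RA, IL5RA, IL1RL2 and IL1RAPL2. IL4I1, an amino acid oxidase named for its induction by IL-4, was below 50, and of the 6 RNA genes only IL21R-AS1 reached the mark, at 76.8 with vector against 34.1 with stable Set8b and 5.0 with wild-type Set8b.

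**Figure D3:**
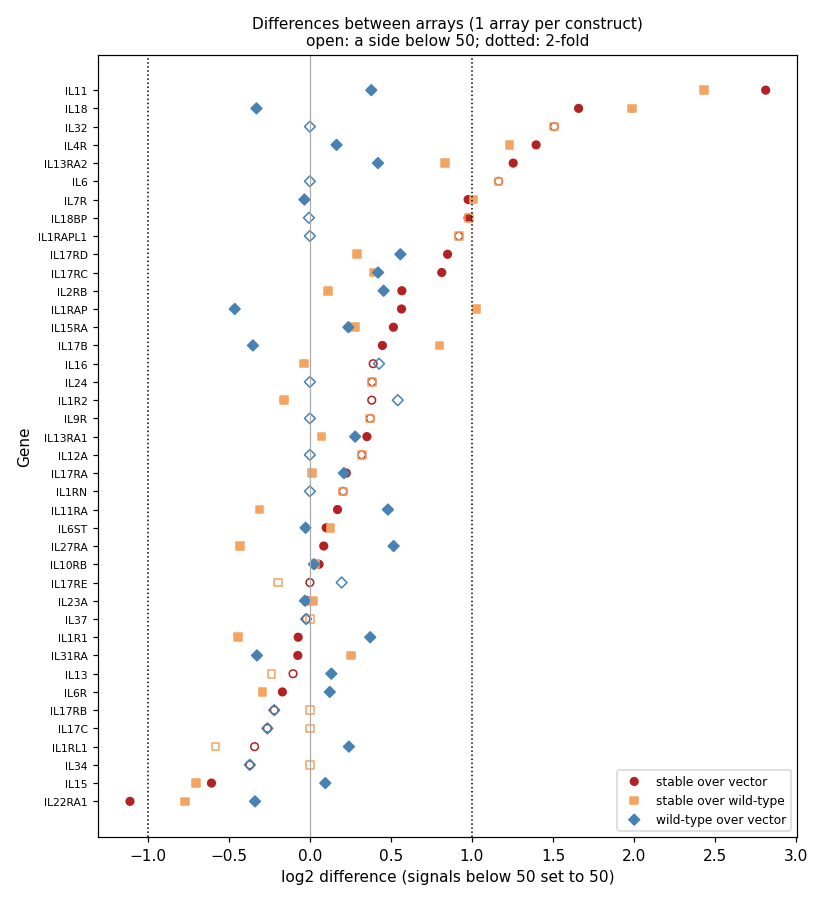
log2 difference between arrays (horizontal) for each ligand, antagonist and receptor gene that reached 50 on any array, with signals below 50 set to 50 and 1 array per construct. Red circles show stable Set8b over vector, orange squares stable over wild-type Set8b and blue diamonds wild-type Set8b over vector, open symbols have a side below 50, and dotted lines mark 2-fold. IL11 (2.81 and 2.43) and IL18 (1.66 and 1.99) lie farthest right, IL22RA1 (-1.11) farthest left, and all blue diamonds lie between the dotted lines.

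Between wild-type Set8b and vector the members with both signals at or above 50 and the largest differences were IL17RD at 0.56, IL27RA at 0.52, IL11RA at 0.48 and IL1RAP at -0.46 log2. For IL11RA both probe sets were on this side (0.48 and 0.52), while for IL27RA the second probe set gave -0.12. Of the 41 genes that reached 50, the highest signal was on the stable Set8b array for 23, on the wild-type array for 10 and on the vector array for 8 (56.1%, 24.4% and 19.5%), beside 39.4%, 30.8% and 29.8% of the 12963 genes of the whole array that reached 50. For genes that reached 50 on 1 array only, the filter itself fixed the highest array, in members and in all genes alike. By the brightest probe set of each gene, these members were IL6, IL32, IL12A, IL24, IL1RN, IL1RAPL1 and IL9R with stable Set8b, IL17RE with wild-type Set8b, and IL17C, IL34, IL37, IL17RB and IL21R-AS1 with vector. IL9R also reached 50 with wild-type Set8b by 214950_at, at 67.5. The size of a difference did not enter, so IL10RB, within 0.06 log2, was counted too. Centring arrays on their medians in place of quantile normalization shifted the median of all bright genes to -0.12 for both forms of Set8b over vector and changed no count of members past 2-fold.

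Probe sets of the same gene often differed in size. In all 157 probe sets, 63 reached 50 on some array, and 15 genes had several that did. Of these, IL7R, IL1RAP, IL15, IL11RA and IL17RD kept their direction in every such probe set for stable Set8b over vector and over wild-type, whereas IL11, IL17RA and IL13RA1 had probe sets on both sides of 0 over vector, and so did IL17RC, IL6ST and IL6R, where 1 of the sides is a bound against a signal below 50.

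**Figure D4:**
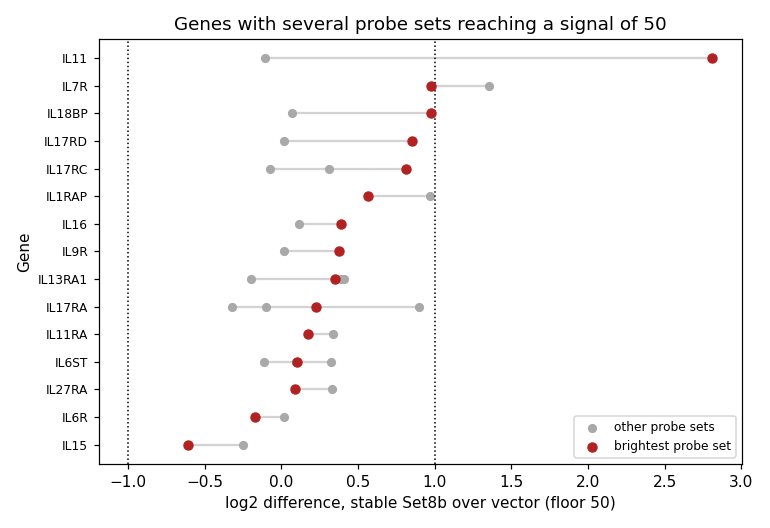
log2 difference of stable Set8b over vector (horizontal) for every probe set that reached 50 on any array, for the 15 genes with several such probe sets, with signals below 50 set to 50. Red points are the brightest probe set of each gene, grey points the others, and dotted lines mark 2-fold. IL11 spans from -0.11 to 2.81, while both points of IL7R lie near or past 2-fold at 0.98 and 1.36.

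Genes that act with interleukins were counted in the same way. Of 17 measured ligands and receptors that belong to these families under other names, stable Set8b exceeded vector by 2-fold or more for 3 and was lower by as much for 0. Over all genes 3.09% were higher and 2.6% lower. EBI3, a subunit of IL-27 and IL-35, read 378 with stable Set8b, 48.2 with wild-type Set8b and 68.0 with vector, a log2 difference of 2.47 over vector. LIF, a gp130 ligand like IL-11, read 1267 with stable Set8b, 789.9 with wild-type Set8b and 510.3 with vector (1.31 log2), and CXCL8, also known as interleukin 8, was at least 3.22 higher by 202859_x_at, while its other probe set was below 50 on every array. CTF1, another gp130 ligand, went the other way at -0.67. In EBI3 and CXCL8 the stable Set8b array stood apart, while for LIF the wild-type array lay between the others.

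Of 23 measured JAK, STAT, SOCS and related genes, stable Set8b exceeded vector by 2-fold for 0 and was lower by 2-fold for 1, where 3.09% of all genes were higher and 2.6% lower. SOCS1, a feedback inhibitor that JAK signalling induces, read 69.2 with stable Set8b, 267 with wild-type Set8b and 199 with vector, a log2 difference of -1.52, and its other 3 probe sets were below 50 on every array. SOCS3, the inhibitor that binds gp130, was at -0.93, with its 4 probe sets ranging from -1.43 to 0.0 with signals below 50 set to 50, SOCS7 was at -0.56 and the kinase JAK3 at 0.74. Over their probe sets, with the same floor, SOCS7 ranged from -0.56 to -0.03 and JAK3 from 0.0 to 0.74. Of 16 measured genes of IL-1 and IL-17 signalling 0 passed 2-fold in any comparison, with the adaptor MYD88 at 0.71, the IRAK-binding PELI2 at -0.98, TAB3 at 0.45 and IRAK2 at 0.44 for stable Set8b over vector. MYD88 has 1 probe set. Over their probe sets PELI2 ranged from -0.98 to 0.0, TAB3 from 0.0 to 0.87 and IRAK2 from 0.0 to 0.44. Counts of 0 or 1 in lists this short are close to the shares over all genes.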

How the data were processed

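Total RNA from U2OS cells was hybridised to Affymetrix arrays, 1 for each of 3 constructs, per the labels' protocols. The deposited table holds an intensity on a linear scale for each probe set, and its values show that each array was scaled to a trimmed mean of 250.0 (2% trimmed at each end). The summarising software is not named in the labels. The number of arrays limits the precision. With Python 3.11.15 (pandas 2.3.3, numpy 2.4.6; figures with matplotlib 3.10.9), 62 control probe sets were left out, arrays were quantile normalized, signals below 50 were set to 50 and log2 differences were taken for the probe set with the highest mean log2. Symbols came from the platform annotation, and all 157 member probe sets matched RefSeq by Entrez identifier with 0 changed names. Steps were tested on simulated data. The members and lists were chosen with earlier results of these data known. Members that reached 50 could be named with values, and from other lists up to 4 whose signals differed most between stable Set8b and vector. CD3D, NCAM1, the other leukocyte markers that reached 50 and the genes named as below 50 aid the check of cell type. Alternatives were values as deposited, median centring, other floors (20th percentile, 1, 100), filters on dim probe sets, averaging a gene's probe sets, dropping those ending in _x_at and _s_at, and thresholds of 1.5-fold and 3-fold.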

Additional observations from a re-analysis of the deposited data

How the results depend on the processing

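Values as deposited and median centring left every count of members past 2-fold and the genes counted as they were. The floor mattered most, since most members are dim. With signals floored at 7.7, the 20th percentile, 23 members were higher and 10 lower for stable Set8b over vector, 27 and 9 over wild-type Set8b, and 9 and 9 for wild-type Set8b over vector. With a floor of 1 the counts were 26 and 14, 31 and 13, and 15 and 16. With a floor of 100, 3 were higher and 0 lower over vector and 4 higher over wild-type. The median of stable Set8b over vector was 0.37 with the floor at the 20th percentile and 0.50 with the floor of 1. With the floor at the 20th percentile, the median over the 26 members past the median-signal filter was 0.40, against -0.01 over all 11783 genes past it. There, 4 members were higher over vector (15.4%, against 5.23% of all genes) and 1 lower (3.85%, against 4.81%). IL6 and IL32, counted as higher in both comparisons of stable Set8b without the filter, did not pass it. Over wild-type Set8b 6 were higher (23.1%, against 4.45%) and 1 lower, IL1RL1 (3.85%, against 4.8%). IL18BP came in among the higher ones. The filter took the mean over the same 3 arrays, so a gene could pass it through the array where it was high. IL18BP was above the cut of 51.4 on the stable Set8b array only (98.7, against 30.6 with wild-type Set8b and 50.2 with vector). For the other floors and thresholds and the brightest 25%, shares over all genes are not given, so those counts have no background beside them. Among the brightest 25% of probe sets (12 members), 2 were higher and 0 lower over vector and 3 higher over wild-type. At 1.5-fold, 11 were higher and 3 lower over vector, 11 and 2 over wild-type, and 1 was lower for wild-type Set8b over vector. At 3-fold, 2 were higher and 0 lower over vector and 2 higher over wild-type, IL11 and IL18. No difference past 2-fold of a named member changed sign under any alternative run. A change of floor cannot change a sign, however, so those settings were no check of it. With the mean over probe sets, IL11 fell from 2.81 to 1.35 log2 for stable Set8b over vector. With the mean over probe sets IL7R was also counted over vector and no longer over wild-type, and without _x_at and _s_at probe sets IL32 had none left. Low signals limit what can be said of most members, and nothing here measures the spread between cultures.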
